A study of Mus musculus with 9 samples.

Results

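The type I interferon response module described here held 33 genes that cells switch on after type I interferon has bound its receptor. Its members were chosen by name as known interferon-induced genes, with earlier results of these data known. All 33 were among the 31053 genes of the count matrices. They were sorted by role into 4 sensors of nucleic acid, 5 regulators of the signal, the 4 Ifit and Isg15 genes, 5 oligoadenylate synthetases, 10 other antiviral effectors and 5 interferon-inducible GTPases.

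Type I interferons signal through Ifnar1 and Ifnar2 to a complex that holds Stat2 and Irf9 and binds the interferon-stimulated response element in the promoters of responding genes. Irf7, itself a responding gene, turns on further interferon genes and so closes a feed-forward loop. In the gut, signals from resident microbes keep this programme at a low, steady level in phagocytes, and inflammation raises it. The GTPase members also respond to interferon gamma, so that they report on both kinds of interferon.

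The libraries were made from CD11b+ lamina propria cells of male C57BL/6 mice aged 7 to 8 weeks. All mice were labelled wildtype except in 1 library. SPF (specific pathogen-free) colon had 2 libraries, germ-free (GF) colon 2 and the small intestine of mice labelled normal 2. DSS colon had 1 library, from SPF mice given dextran sodium sulfate, which damages the epithelium, at 2.5% (wt/vol) in the drinking water for 7 days. A further library was labelled Nlrc4 deficient and came from mice given the same DSS. The antibiotics colon library came from SPF mice given ampicillin, neomycin and metronidazole at 1 g/L each and vancomycin at 0.5 g/L for 1 week or sometimes longer. Cells of several mice were pooled, according to the study's methods, and the labels do not say whether libraries of one group came from separate mice, so p-values measure the spread between libraries, which may be technical.

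Of 37123 barcodes, 31759 had at most 15% mitochondrial UMIs (unique molecular identifiers, 1 per captured transcript) and at least 200 genes, and the libraries held 13243317 to 64453601 UMIs. Marker genes, none of them a member, placed 24201 cells (76.2%) in a class, and classes are named "-like" since they rest on markers alone. They comprised 3019 monocyte-like, 2853 macrophage-like, 4798 dendritic cell-like, 1455 neutrophil-like, 4399 B cell-like, 2817 plasma cell-like, 2354 T cell-like and 540 NK or innate lymphoid-like cells, lymphoid cells having passed the CD11b sort. Few cells stood behind some values, with 21 and 66 monocyte-like cells in the GF libraries, 28 and 23 in the small intestine, and 32 neutrophil-like cells in GF replicate 1. Pairs of libraries shared 0 to 20 barcodes, and no doublet caller was run. Nlrc4 itself did not bear out the label of the library labelled Nlrc4 deficient. There it had 592 UMIs or 35.4 CPM (UMIs scaled to the total of the class in a library) in monocyte-like cells, against 16.0 and 19.8 CPM in the SPF libraries. The deleted part is not given in the sources used here, and 3′ tags outside it would check nothing.

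Promoters of the members were searched for the letters of the response element. Since members were chosen as known interferon-induced genes, a raised share could follow from that choice. The RefSeq promoter table (GRCm38.p6, 250 bases before the start of the gene and 50 after) held 27 of the 33. The letters of the response element, a GAAA followed after any 2 bases by another GAAA on either strand, were found in 17 of these 27 (63%), against 943 of all 27025 promoters (3.49%). Of the 17, 10 had the letters at 1 position and 7 at more than 1. The letters TTC and GAA with any 3 bases between, on either strand and of the kind found in promoters that answer to interferon gamma, were in 7 of 27 (25.9%) against 2288 of 27025 (8.47%), and 5 members had both. A match is a description of these letters and not a measured binding site. The stretches below are shown because they carry those letters upstream of members on which the results turn. Each is written 5′ to 3′ on the strand of the gene, with the matched letters in capitals and up to 30 bases on either side.
Isg15, chr4:156200845-156200926 (minus strand): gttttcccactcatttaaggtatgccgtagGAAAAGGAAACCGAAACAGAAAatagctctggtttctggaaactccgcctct
Ifit1, chr19:34640755-34640843 (plus strand): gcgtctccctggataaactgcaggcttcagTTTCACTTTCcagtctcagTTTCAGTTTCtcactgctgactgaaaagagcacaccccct
Ifit3, chr19:34583343-34583446 (plus strand): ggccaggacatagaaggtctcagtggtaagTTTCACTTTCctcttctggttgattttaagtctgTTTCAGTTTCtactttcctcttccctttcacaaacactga
Rsad2, chr12:26456533-26456602 (minus strand): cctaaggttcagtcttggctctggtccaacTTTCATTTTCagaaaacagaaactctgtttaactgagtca
Oas3, chr5:120777695-120777764 (minus strand): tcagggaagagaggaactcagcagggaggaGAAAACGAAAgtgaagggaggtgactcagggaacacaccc
Bst2, chr8:71537557-71537632 (minus strand): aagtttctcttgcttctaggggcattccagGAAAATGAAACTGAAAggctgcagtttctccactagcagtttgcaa
Gbp2, chr3:142620574-142620643 (plus strand): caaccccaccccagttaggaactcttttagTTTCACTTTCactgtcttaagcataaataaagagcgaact

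In Isg15 the matches overlapped, starting 78, 72 and 66 bases before the start, and Ifit1 and Ifit3 each had a pair on the opposite strand. The single match in Rsad2 began 120 bases before the start and that of Gbp2 59 bases before it. The window of Irf7 held neither set of letters, nor did those of Oasl1, Oasl2, Ifi44, Ifi47, Irf9, Xaf1 and Cmpk2, which says only that the letters are not in this stretch.

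The summed level of the module was higher in myeloid than in lymphoid classes. Monocyte-like cells held 4947 and 4284 CPM of member UMIs in the SPF libraries, 1657 and 3661 in GF, 4389 with antibiotics, 8080 with DSS, 8649 in the library labelled Nlrc4 deficient, and 5191 and 4128 in the small intestine. Macrophage-like cells held 3087 and 3277 CPM in SPF, 2027 and 3560 in GF, 4540 with antibiotics, 5733 with DSS, 5687 in the library labelled Nlrc4 deficient, and 2539 and 1775 in the small intestine. Their GF libraries thus lay on either side of the SPF pair, while the DSS libraries were highest. Neutrophil-like cells ran from 1447 in small intestine replicate 2 to 8885 CPM in the library labelled Nlrc4 deficient. Dendritic cell-like cells lay between 1261 and 4987 CPM. B cell-like cells had sums of at most 1411 CPM and T cell-like cells of 474 to 1431, so that no lymphoid value reached the lowest of the monocyte-like, macrophage-like and neutrophil-like values. In all 7 classes with a DSS and an SPF pair, the DSS library exceeded both SPF libraries.

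**Figure D1:**
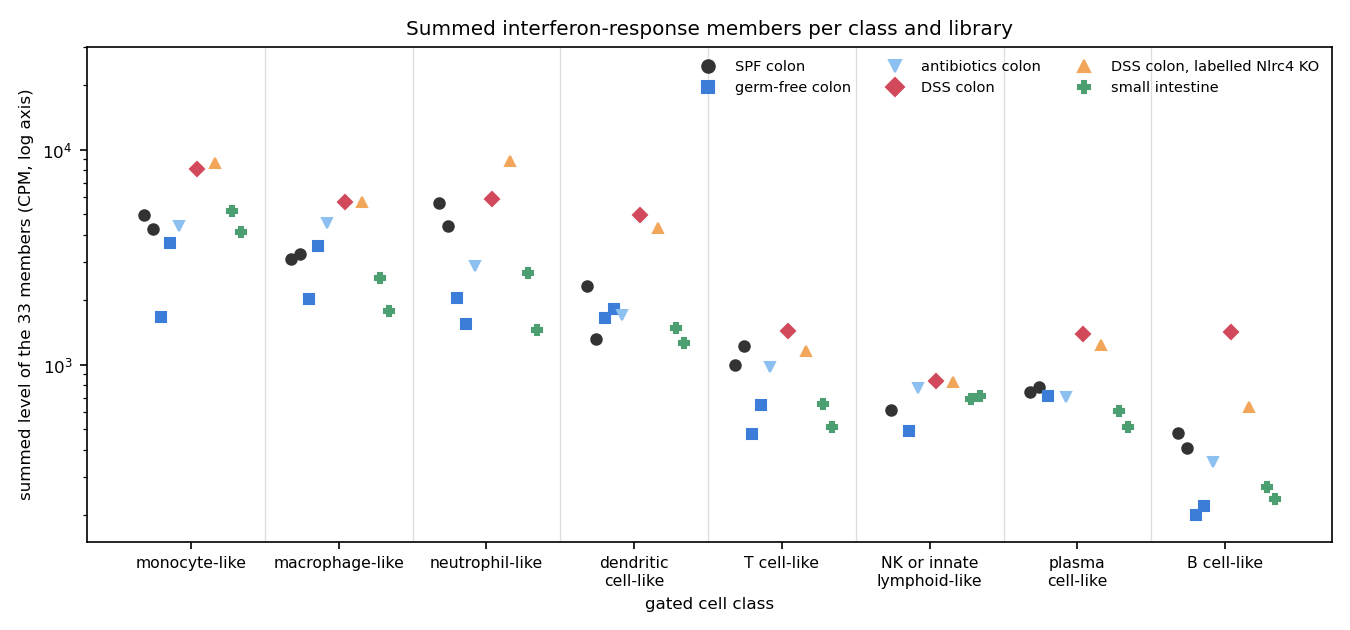
Summed CPM of the 33 members (log axis) in each gated class, 1 point per library, coloured by group. DSS colon lies above both SPF colon libraries in each class that has both, and in macrophage-like cells the GF points straddle the SPF points.

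The members with the most UMIs differed between the myeloid classes, with Ifitm3 and Isg15 among the leading 5 in each. Values are 3′ UMIs scaled to the class total without division by gene length. Ifitm3, a membrane protein that blocks the fusion of enveloped viruses, led in monocyte-like cells with 1920 ± 764 CPM (SD, n = 9 libraries), followed by Gbp2, Ifi204, Isg15 and Bst2. In macrophage-like cells Ifitm3 had 556.5 ± 454 CPM, and Rsad2 (viperin, which makes a chain-terminating nucleotide) followed with 430.1 ± 333, then Isg15, Oasl1 and Bst2. In neutrophil-like cells the order was Ifitm3, Isg15, Rsad2, Gbp2 and Oasl2. Ifitm3 in monocyte-like cells stood above the next member by more than the SD of either. The other neighbours in these orders differed by less than the larger SD of the pair over libraries. Plasma cell-like cells were led by Bst2, tetherin, with 373.2 ± 94.3 CPM (n = 8), and T cell-like cells by the GTPase Igtp with 96.4 ± 51.1 (n = 9). By mean level over libraries, 13 members were highest in monocyte-like cells, 11 in neutrophil-like, 6 in macrophage-like and 1 each in dendritic cell-like (Stat2), plasma cell-like (Bst2) and T cell-like cells (Igtp).

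Macrophage-like cells were compared with monocyte-like cells of the same libraries, member by member. Rsad2, Oasl1, Ifit2 and Ifih1 were higher in macrophage-like cells and Ifitm3, Oas3, Zbp1, Gbp2, Ifi47, Isg20, Oas1a, Irf7 and Irgm1 lower, by the edgeR quasi-likelihood test over 10867 genes, with library as a block and p-values adjusted after Benjamini and Hochberg. These are 4 of 33 higher, where 16.5% of all genes were called higher, and 9 of 33 lower, where 10.6% were. The share of members called higher was thus below that of all genes. Ifitm3 differed most, with a log2 fold change of −2.06 ± 0.25 (SE, adjusted p = 5.2e-10), and was lower in 9 of 9 libraries. Zbp1, a sensor of Z-form nucleic acid that can start necroptosis, also lay lower in 9 of 9 (−1.17 ± 0.26, adjusted p = 0.00034), as did Gbp2 (−1.09 ± 0.30, adjusted p = 0.0045). Oas3, which makes the 2′-5′ oligoadenylate that activates RNase L, was lower in 8 of 9 (−1.30 ± 0.29, adjusted p = 0.00029). In the other direction Rsad2 was higher in 7 of 9 libraries (1.31 ± 0.33, adjusted p = 0.0018) and Oasl1, an inhibitor of Irf7 translation, in 8 of 9 (1.18 ± 0.33, adjusted p = 0.0041). Ifih1 (MDA5), a cytoplasmic sensor of long double-stranded RNA, was higher in 7 of 9 (0.91 ± 0.25, adjusted p = 0.0037). The members' median was −0.31 against 0.10 for all genes. On the SPF libraries alone 1 member was called higher and 1 lower, and without the library block 2 and 2. Ifit2 missed the threshold without GF replicate 2 (adjusted p = 0.0686), without the antibiotics library (0.10) and with a stricter gate, which asks for a lead of 0.3 over the next class in place of 0.15 (0.0909). Isg20 had 0.0525 without SPF replicate 2. Ifi47 passed by little (adjusted p = 0.039) and missed the threshold without SPF replicate 1 (0.0762), the library labelled Nlrc4 deficient (0.0849), GF replicate 1 (0.0590) or either small intestine library (0.0558 and 0.0697). It also missed it without both DSS libraries (0.114), in DESeq2 (0.0667), under the RLE normalization (0.0545) and with the stricter gate (0.0537).

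Neutrophil-like cells differed from monocyte-like cells in both directions. Of the 4 Ifit and Isg15 genes 3 were higher, of the 5 synthetases 3 were higher and 1 lower, of the 10 antiviral effectors 4 were higher and 4 lower, and of the 4 sensors 2 were lower and 0 higher. Isg20, an RNA exonuclease, stood 2.54 ± 0.30 above monocyte-like cells on the log2 scale (adjusted p = 9.9e-11) and was higher in 8 of 9 libraries, by the same edgeR test. Oasl2 was higher in 9 of 9 (1.89 ± 0.29, adjusted p = 7.4e-08), Ifit3 in 8 of 9 (2.04 ± 0.42, adjusted p = 4.6e-05) and Rsad2 in 8 of 9 (1.68 ± 0.35, adjusted p = 4.7e-05). Bst2 was lower in 9 of 9 (−1.95 ± 0.27, adjusted p = 7.1e-09), and Mx1 and Ifi213 in 8 of 9. In all 12 of 33 were higher (background 21.8%) and 7 of 33 lower (26.8%), with a median of 0.42 against −0.20 for all genes. This balance depended on the library labelled Nlrc4 deficient: without it 7 were higher and 9 lower and the median was 0.02, and without both DSS libraries 8 and 10. Cmpk2, a nucleotide kinase encoded next to Rsad2, had an adjusted p of 0.102 without that library and 0.0619 without both DSS libraries, and Ifit1 0.102 and 0.228. Ifit1 was also lost without SPF replicate 2 (0.052) and in DESeq2 (0.368) and Ifi44 without SPF replicate 1 (0.10) and in DESeq2 (0.097). Ifit3 has a near-identical neighbour, Ifit3b, between which the counting could split reads, and likewise Oas1a with Oas1g and the Ifi200-family members Ifi204 and Ifi213 with their paralogs.

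Dendritic cell-like and lymphoid classes lay below monocyte-like cells over most of the module. Dendritic cell-like cells had 27 of 33 members lower and 0 higher (backgrounds 23.4% and 29.7%). Ifi204 led at −3.20 ± 0.22 (edgeR adjusted p = 8.9e-20, lower in 9 of 9 libraries), followed by Ifi213, Oas3 and Oas2. All 33 members were lower in B cell-like cells (background 33.6%), with a median of −3.54, and Ifi204 and Ifitm3 had log2 fold changes of −6.41 ± 0.30 and −6.34 ± 0.31. T cell-like cells had 29 lower (background 31.1%) and Igtp higher by 1.80 in 9 of 9 libraries, the only member called higher, where 38.5% of all genes were. Plasma cell-like cells had 29 lower (31.6%) and 3 higher (40.4%). Isg20 at 1.58 and Bst2 at 1.45 were each above monocyte-like cells in 6 of 8 libraries. Cmpk2 at 0.97 was above in only 4 of 8 and below in 4. NK or innate lymphoid-like cells had 31 lower (28.7%) and 0 higher (28.8%). Ifitm3 and Oas1a were called lower than in monocyte-like cells in all 7 other classes, and Igtp in 2. These classes share the monocyte-like libraries as reference.

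**Figure D2:**
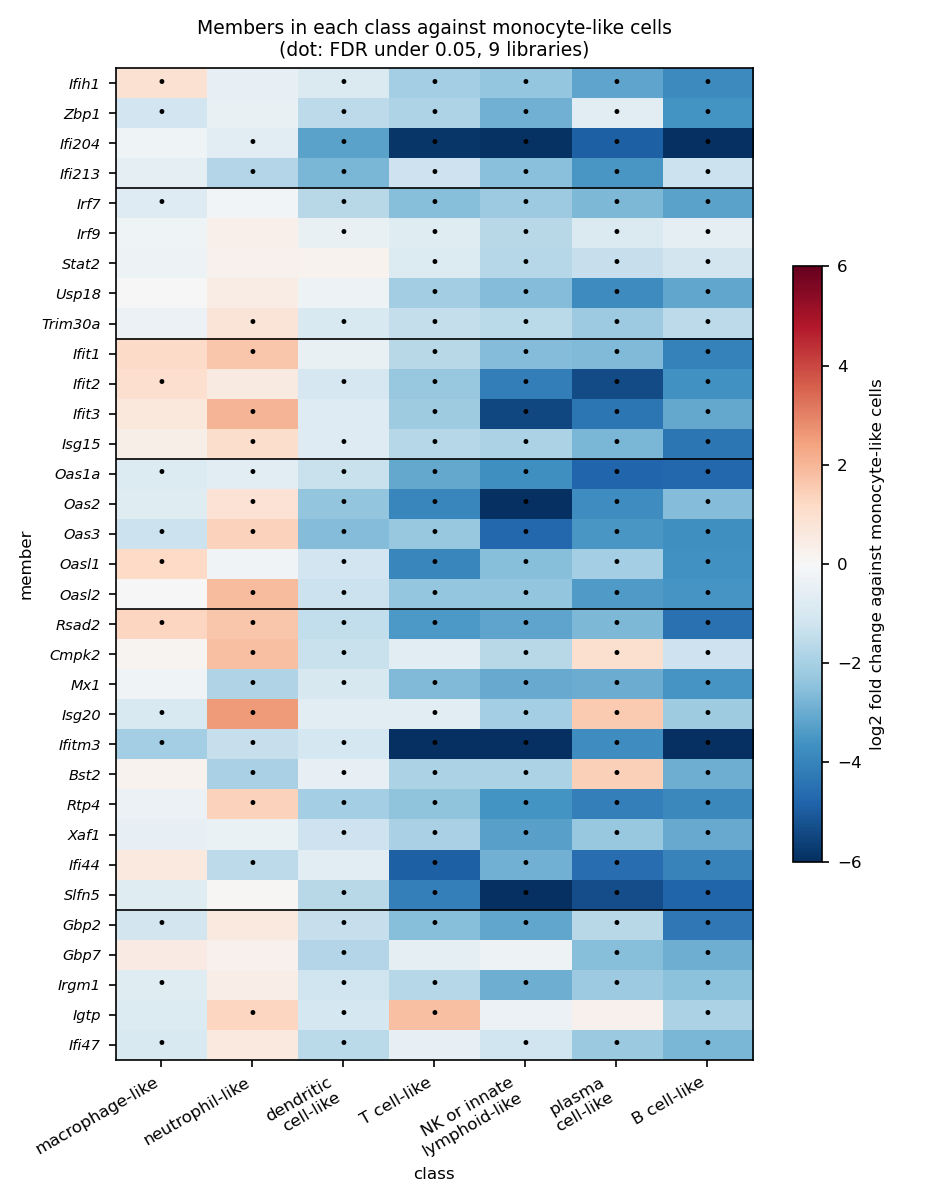
Log2 fold change of each member (rows, grouped by role with black lines) in 7 classes against monocyte-like cells of the same libraries, blue for lower and red for higher; dots mark an adjusted p under 0.05. B cell-like cells are blue for all 33 members, while macrophage-like and neutrophil-like cells hold 4 and 12 members called higher.

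Genes around the module were compared between classes by the same test. Ifnb1, which encodes interferon beta, was higher in macrophage-like than in monocyte-like cells, at 2.05 on the log2 scale, and it was lower than in monocyte-like cells in dendritic cell-like cells (−2.55) and neutrophil-like cells (−2.30). Its UMIs came from few cells, with 2 in 1 of 336 macrophage-like cells of SPF replicate 1. In the library labelled Nlrc4 deficient it had 16.5 CPM in macrophage-like and 17.7 in monocyte-like cells. Macrophage-like cells were above in the other libraries, some of them on 1 or 2 UMIs. The DSS library had 1 UMI in each class. SPF replicate 1 and small intestine replicate 1 each had 2 UMIs in macrophage-like and 0 in monocyte-like cells. In GF replicate 1 the 0 UMIs of monocyte-like cells came from 21 cells. Ifng, interferon gamma, was higher in T cell-like cells by 6.50 and in NK or innate lymphoid-like cells by 7.93. Of the 14 receptor and JAK-STAT genes tested, 3 were lower and 0 higher in macrophage-like cells, Irf1 by −0.89 foremost. In neutrophil-like cells 6 were higher and 0 lower, including Il10rb (1.59) and Socs1 (1.47). Of 43 further interferon-induced genes tested, 2 were higher and 11 lower in macrophage-like cells (backgrounds 16.5% and 10.6%), 9 and 12 in neutrophil-like cells (21.8% and 26.8%), and 4 and 27 in dendritic cell-like cells (29.7% and 23.4%). The neutrophil-like shares were near the background.

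Germ-free colon was compared with SPF colon to ask how the module depends on the presence of microbes. No member passed the adjusted threshold in any of 6 classes in the fit over the SPF, GF and small intestine libraries, and 1 of 2422 genes did in neutrophil-like cells (0.0413%) and none elsewhere. DESeq2 also called 0 members. At an unadjusted p under 0.05, edgeR had 13 of 27 tested members lower and 0 higher in monocyte-like cells (3.48% of all genes in either direction), 12 of 33 lower in macrophage-like cells (3.15%), and 12 of 15 lower in neutrophil-like cells (5.33%). The counts were 6 of 14 lower in B cell-like (6.45%) and 9 of 24 lower in T cell-like cells (8.78%). In dendritic cell-like cells 5 of 33 were higher and 0 lower (5.13%). Whether this class differed from the others in the effect of GF was not tested. With 2 libraries against 2, an exact permutation test cannot give less than p = 0.333. The count depended on single libraries, with 7 calls without SPF replicate 2 or GF replicate 1, 4 without SPF replicate 1, and 22 when genes of low counts were kept.

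Irf7 showed the difference in most classes. In monocyte-like cells it had 213.5 and 196.8 CPM in SPF, and 27.8 and 69.0 in GF. In macrophage-like cells the values were 144.0 and 91.0 against 14.9 and 62.2, and in neutrophil-like cells 130.2 and 176.7 against 14.1 and 24.3. In each of these classes the GF libraries lay below both SPF libraries. T cell-like cells followed at lower levels, with 36.0 and 42.1 in SPF and 13.1 and 23.5 in GF. In dendritic cell-like cells the SPF values, 81.0 and 24.2, enclosed the GF values of 48.5 and 37.9. The log2 fold change in neutrophil-like cells was −2.67 ± 0.55 (edgeR adjusted p = 0.149).

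Counted over members, the libraries of the 2 groups often did not overlap. Both GF libraries lay below both SPF libraries for 25 of 33 members in monocyte-like cells, where 25.2% of all genes did, and for 17 of 33 in macrophage-like cells (17.9%). In neutrophil-like cells it was 24 of the 30 members with at least 10 UMIs (22.9%), in B cell-like cells 19 of 26 (26.2%) and in T cell-like cells 24 of 32 (28.7%). The 10 UMIs were summed over the SPF and GF libraries, so a member could pass on its SPF UMIs alone. The same minimum applied to all genes. Monocyte-like cells held 108049 and 580148 UMIs in GF, against 1873738 and 1814067 in SPF. Ifi44 was counted below there with 24.0 and 1.65 CPM in SPF, though a GF count of 0 allows up to 27.8 and 5.17. Dendritic cell-like cells had 7 of 33 below (27.5%), near the background, and 3 above, Ifih1, Ifit1 and Oasl1 (8.58%). No member lay above in the other 5 classes, where 9.58% of all genes did in monocyte-like, 11.8% in macrophage-like, 11.9% in neutrophil-like, 10.4% in B cell-like and 12.8% in T cell-like cells. The members given by value in GF and in the small intestine were chosen after their values were seen, since none was called. Gbp2 and Trim30a, a TRIM protein that restrains Toll-like receptor signalling, were below in 6 of 6 classes. Zbp1, Irf7, Oas2, Bst2, Slfn5 and Ifi47 were below in 5, and 19 members in at least 4. Gbp2 in macrophage-like cells had 160.4 and 87.7 CPM in SPF and 32.4 and 46.4 in GF. In T cell-like cells it had 55.3 and 76.0 against 11.5 and 24.7. Usp18, the protease that removes Isg15 and dampens the interferon receptor, had 35.8 and 13.8 CPM in SPF monocyte-like cells and 0 UMIs in both GF libraries, which allow up to 27.8 and 5.17 CPM by counting error.

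**Figure D3:**
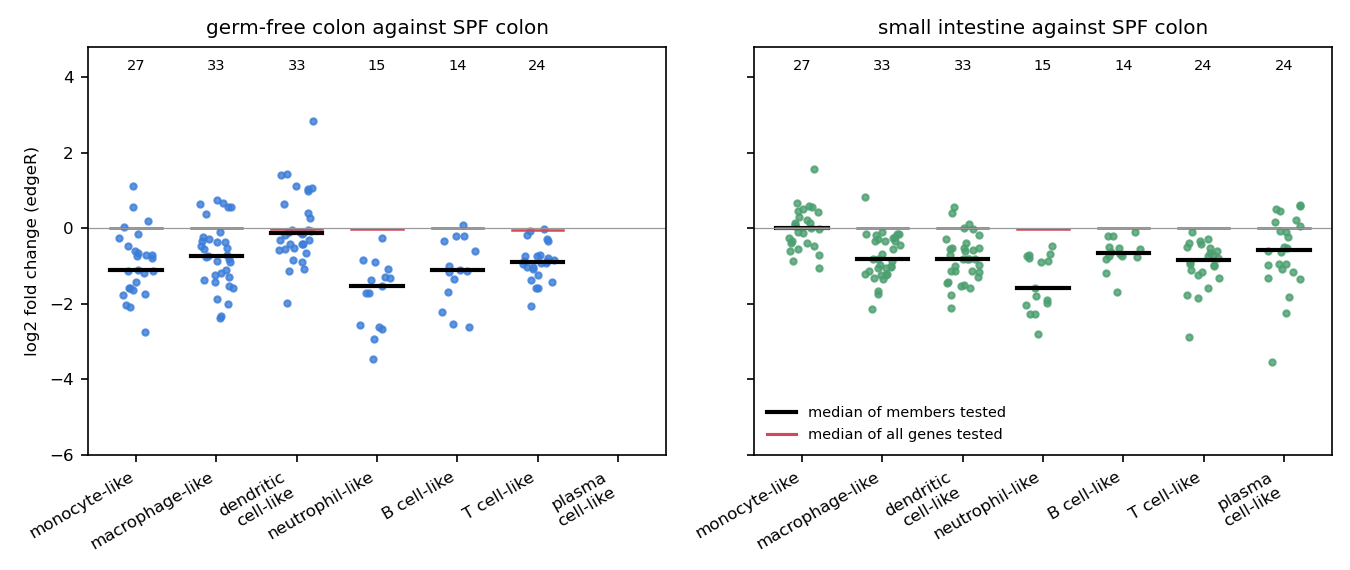
Log2 fold change (edgeR) of the members tested in each class, 1 point per member, for GF colon and small intestine against SPF colon; the number tested stands above. Black lines are the members' medians and red lines those of all genes tested. In GF the black line lies lowest in neutrophil-like cells (−1.52, 15 members) and close to the red line in dendritic cell-like cells (−0.13, 33 members).

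SPF libraries differed among themselves by amounts that limit each of these comparisons. In monocyte-like cells 14 of 33 members were past 2-fold higher in SPF replicate 1 than in replicate 2 and 0 the other way. In dendritic cell-like cells it was 10 and 0, and in neutrophil-like cells 12 and 4. B cell-like and T cell-like cells had 3 members each past 2-fold in either direction. Ifi47, an immunity-related GTPase, had 255.3 and 28.7 CPM in neutrophil-like cells of the SPF pair. Markers of other cells also moved. Summed monocyte markers in macrophage-like cells were 810.7 and 293.8 CPM in SPF and 364.1 and 319.8 in GF, and in T cell-like cells 177 and 317.7 against 78.8 and 156. Their part in the differences was not tested.

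In macrophage-like cells Oasl1 and Rsad2 did not follow the pattern of Irf7 and Gbp2. Oasl1 had 85.7 and 408.9 CPM in SPF, 204.1 and 555.7 in GF, 428.2 with antibiotics, 144.4 with DSS, 664.9 in the library labelled Nlrc4 deficient, and 74.2 and 79.3 in the small intestine. Rsad2 had 152.4 and 549.3 in SPF, 265.4 and 614.1 in GF, 1176 with antibiotics, 261.0 with DSS, 512.0 in the library labelled Nlrc4 deficient, and 225.7 and 115.0 in the small intestine. Both were low in SPF replicate 1, DSS and the small intestine, and high in SPF replicate 2, GF replicate 2, antibiotics and the library labelled Nlrc4 deficient. Ifnb1 was also low in SPF replicate 1, DSS and the small intestine and high in SPF replicate 2, GF replicate 2 and antibiotics, but it was high in GF replicate 1 too, with 0.884 and 53.7 CPM in SPF, 71.3 and 65.2 in GF, 110.3 with antibiotics, 0.580 with DSS, 16.5 in the library labelled Nlrc4 deficient, and 1.29 and 6.50 in the small intestine. It came from few cells: in SPF replicate 1, 2 UMIs lay in 1 of 336 cells, and in SPF replicate 2, 49 UMIs in 13 of 95. In GF, 86 UMIs lay in 15 of 205 cells and 87 in 26 of 114, with at most 22 UMIs in a cell. Rsad2 was likewise uneven, and in SPF replicate 2 1 cell held 192 of its 501 UMIs. Ifnb1 in GF against SPF was not called (edgeR adjusted p = 0.9997 in macrophage-like cells). The likeness of these genes over libraries is a description of 9 values, chosen after they were seen.

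**Figure D4:**
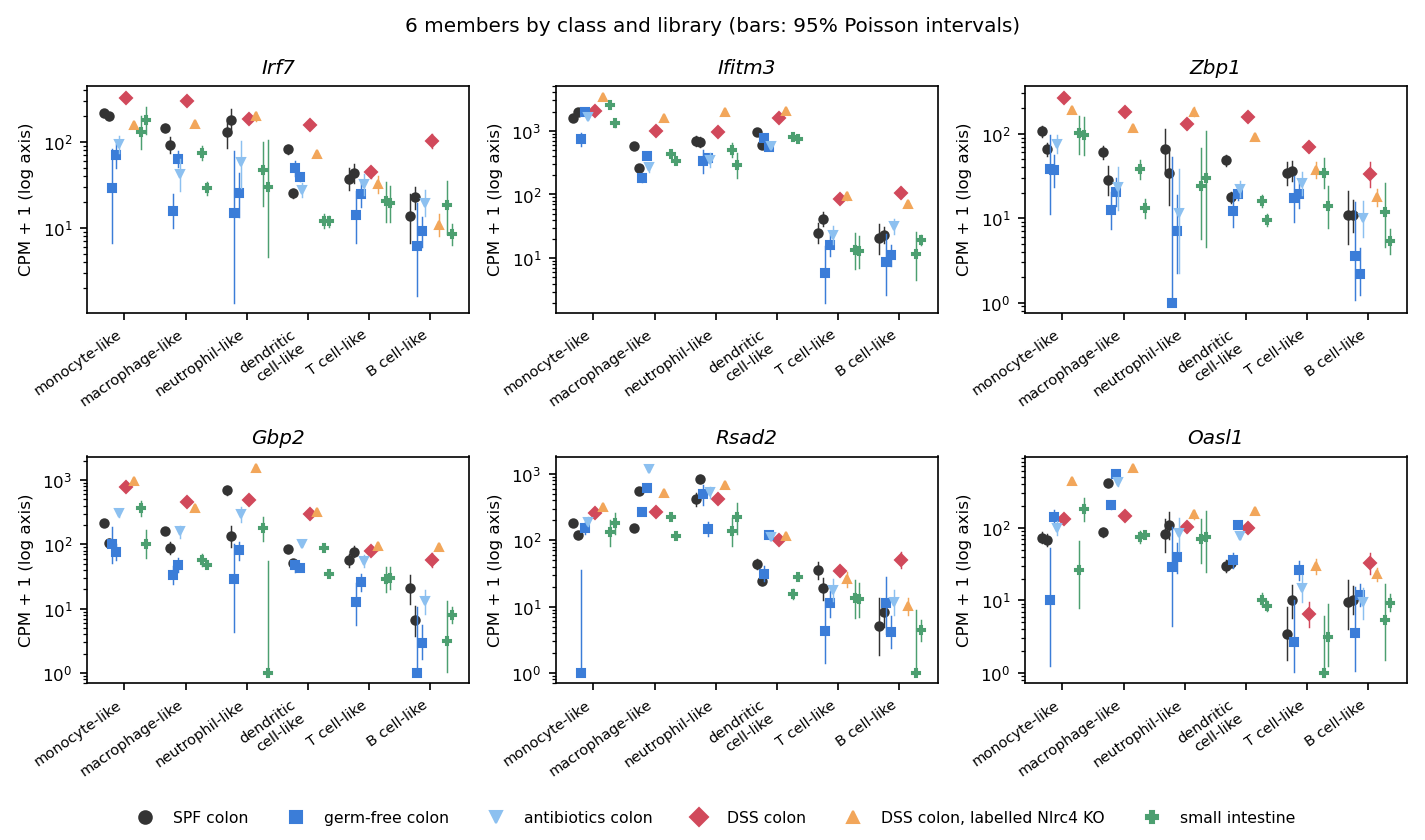
CPM + 1 (log axes) of 6 members by class, 1 point per library with its 95% Poisson interval, which covers counting error only. Irf7, Zbp1 and Gbp2 lie lower in GF (blue squares) than in SPF (black) in monocyte-like, macrophage-like, neutrophil-like and T cell-like cells, while Rsad2 and Oasl1 in macrophage-like cells spread over all groups.

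Further genes of the pathway in GF were described by the same count. Of 42 other interferon-induced genes with enough UMIs in monocyte-like cells 30 lay below SPF without overlap (25.2% of all genes), of 41 in macrophage-like cells 20 (17.9%), of 40 in T cell-like cells 25 (28.7%) and of 42 in dendritic cell-like cells 12 (27.5%), the last near the background. No gene of these lists was called. Ifng in T cell-like cells, 205 and 256 CPM in SPF, was 47.6 and 45.8 in GF. The differences between classes in the effect of GF were tested by interaction with monocyte-like cells as reference, for macrophage-like and T cell-like cells. No member was called in either (smallest edgeR adjusted p 0.897), with 5 and 3 members of 33 at an unadjusted p under 0.05 (2.49% and 5.28% of all genes), and DESeq2 called 0. For the small intestine the interaction likewise gave 0 calls in edgeR and in DESeq2, with 5 and 4 members at an unadjusted p under 0.05, all lower (5.3% and 3.58%).

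The small intestine was compared with SPF colon to see whether the module differs along the gut. No member passed edgeR's adjusted threshold in 7 classes, and 5 of 11111 genes did in dendritic cell-like cells. DESeq2 called 5 member-class pairs, among them Ifi204, Oasl1 and Irf7 lower in dendritic cell-like cells. At an unadjusted p under 0.05, 10 of 33 members were lower in dendritic cell-like cells (10.2% of all genes in either direction), and 11 of 33 were lower and 1 higher in macrophage-like cells (8.05%). Monocyte-like cells had 0 of 27 (2.99%), and 13 of the 27 lay above 0 and 14 below. Lower were 9 of 15 in the neutrophil-like class (5.95%), 7 of 24 in the T cell-like (3.38%), 5 of 24 in the plasma cell-like (3.95%) and 2 of 14 in the B cell-like (3.51%). Without SPF replicate 2 there were 6 calls, without SPF replicate 1 or GF replicate 1 3, and without either small intestine library 1, while keeping genes of low counts gave 20.

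Dendritic cell-like cells of the small intestine held little Irf7, with 11.1 and 10.9 CPM against 81.0 and 24.2 in SPF colon. The log2 fold change was −2.10 ± 0.49 (edgeR, adjusted p = 0.170). Oasl1 there had 9.25 and 7.40 CPM against 28.8 and 32.1, and Mx1, a dynamin-like antiviral GTPase, 2.76 and 3.67 against 11.4 and 9.92, with the lowest adjusted p of all members (0.120). In each of these the small intestine libraries were below both SPF libraries. In macrophage-like cells Ifit1, which binds the 5′ end of viral RNA, had 12.9 and 19.5 CPM against 46.0 and 98.7, and Gbp7 was the only member above, with 177.3 and 100.6 against 94.5 and 53.7. Both small intestine libraries lay below both SPF libraries for 15 of 33 members in macrophage-like cells (background 15.9%), 15 of 33 in dendritic cell-like cells (27.6%) and 7 of 33 in monocyte-like cells (21.8%). It was 24 of 30 in T cell-like cells (18.9%), 17 of 28 in neutrophil-like cells (16.2%), 16 of 29 in B cell-like cells (25.6%) and 14 of 30 in plasma cell-like cells (20.8%). Above both SPF libraries lay Gbp7 in macrophage-like cells (background 23.6%) and Usp18 in plasma cell-like cells (11.4%). Usp18 there had 0 UMIs in both SPF libraries and so passed the minimum of 10 UMIs on its small intestine UMIs alone. Plasma cell-like cells held 3837330 and 1177900 UMIs in SPF, and 30460370 and 4947227 in the small intestine. No member lay above in monocyte-like (16%), dendritic cell-like (13.9%), neutrophil-like (19.5%), B cell-like (8.93%) and T cell-like cells (10.3%). Rtp4, an interferon-induced chaperone of receptor transport, was below in 6 of 7 classes, and Xaf1 and Ifi44 in 0. Plasma cell markers, which ran from 163.5 to 206.1 CPM in SPF macrophage-like cells, reached 1037 in small intestine replicate 1, and their part was not tested.

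The colon under DSS was set beside SPF colon to describe the module in colitis. With 1 DSS library there is no replicate check and no test, and a member is counted when past 2-fold against each SPF library at a pseudocount of 5 CPM. Past that limit upward were 22 of 33 members in dendritic cell-like cells, where 0.884% of all genes were, and 21 of the 32 with at least 10 UMIs in B cell-like cells (1.04%). The counts were 10 of 33 in macrophage-like (1.07%), 10 of 30 in plasma cell-like (0.972%), 8 of 33 in monocyte-like (0.884%), 3 of 33 in neutrophil-like (8.07%) and 0 of 32 in T cell-like cells (0.576%). No member was past it downward, where 0.251% of all genes were in monocyte-like, 0.508% in macrophage-like, 0.179% in dendritic cell-like, 0.852% in neutrophil-like, 0.391% in B cell-like, 0.27% in T cell-like and 0.0867% in plasma cell-like cells. Neutrophil markers in plasma cell-like cells were 593.5 CPM with DSS and 37.5 and 8.49 in SPF, and their part in the plasma cell-like count was not tested. With the stricter gate the counts were 7 in neutrophil-like and 14 of 29 in B cell-like cells. The 10 UMIs were summed over the SPF and DSS libraries, so a member could pass on its DSS UMIs alone. In B cell-like cells Ifit1, Ifit3 and Usp18 had at most 1.54 CPM in SPF and 18.2, 11.5 and 11.5 with DSS. With no minimum of UMIs the count in B cell-like cells was 21 of 33. The medians of the log2 ratio were 1.55, 1.41, 1.01 and 0.89 in dendritic cell-like, B cell-like, macrophage-like and monocyte-like cells, and those of all genes −0.01, −0.11, 0.12 and 0.04.

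Interferon-inducible GTPases, which attack the vacuoles of intracellular microbes, were among the 5 members with the largest ratios in monocyte-like, macrophage-like and dendritic cell-like cells. Gbp2 in monocyte-like cells had 763.3 CPM with DSS and 215.1 and 103.6 in SPF, a log2 ratio of 2.23 to the SPF mean. Ifi47 had 335.9 against 116.3 and 31.4 (2.11), and Igtp 95.3 against 34.2 and 12.1 (1.83). Ifi44 (2.07) and Ifit1 (1.86) stood beside them in these cells. In macrophage-like cells Igtp (2.05), Irgm1 (1.84) and Ifi47 (1.83) were again among the top 5, with Ifi44 (2.05) and Zbp1 (1.92). In dendritic cell-like cells Ifi44 (2.39), Irgm1 (2.33), Igtp (2.32), Ifi47 (2.24) and Zbp1 (2.11) led. Zbp1 there had 155.1 CPM against 47.4 and 16.7. In neutrophil-like cells the 3 members past the limit were Ifi44 (2.40), Ifi213 (1.54) and Irf9 (1.39), none of them a GTPase of the module. These 3 of 33 were near the background of 8.07%. Ifi44 had 0 CPM in both SPF libraries, of 199749 and 209435 UMIs, and 21.4 with DSS. It passed the minimum on its DSS UMIs alone, and the pseudocount of 5 CPM sets its ratio. Ifi213 had 4.78 CPM in SPF replicate 2, below that pseudocount, and a log2 ratio of 1.12 to SPF replicate 1. Counts depended on which SPF library was used. Without SPF replicate 1 the upward counts were 22 in monocyte-like, 22 in macrophage-like, 15 in neutrophil-like and 20 in plasma cell-like cells, with 2 downward in macrophage-like and 1 in neutrophil-like cells.

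B cell-like cells under DSS showed a different set of leading members. Slfn5, of the Schlafen family, had 71.8 CPM with DSS and 6.99 and 9.78 in SPF, a log2 ratio of 2.52. Rsad2 had 49.8 against 4.19 and 7.2 (2.36), Rtp4 34.5 against 2.8 and 2.57 (2.36), Irf7 102.4 against 12.6 and 21.6 (2.28) and Ifitm3 106.2 against 19.6 and 22.1 (2.11). Irf7 in these cells was low in all other libraries, at 5.19 to 21.6 CPM. Monocyte markers in B cell-like cells were 138.7 CPM with DSS and 29.4 and 32.4 in SPF, and neutrophil markers 364.5 against 191.5 and 32.4. Their part in the ratios was not tested. In T cell-like cells no member was past the limit, Irf7 standing at 43.2 CPM against 36.0 and 42.1.

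Other genes of the pathway were counted by the same limit. Iigp1, a further immunity-related GTPase, had the largest ratio of the other interferon-induced genes in monocyte-like (3.63), macrophage-like (2.64), dendritic cell-like (3.53) and neutrophil-like cells (2.85). Past the limit were 16 of the 42 such genes with enough UMIs in dendritic cell-like (0.884% of all genes), 10 of 43 in monocyte-like (0.884%) and 8 of 43 in macrophage-like cells (1.07%). No interferon gene was past it in these classes. Ifnb1 had 1 UMI in 326 macrophage-like and 1 in 615 monocyte-like cells of the DSS library.

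The library labelled Nlrc4 deficient, also under DSS, is set beside SPF colon and is not a replicate of the DSS library, since genotype and library cannot be told apart. Members past the limit numbered 9 in dendritic cell-like (background 0.528%), 6 in neutrophil-like (2.7%), 5 in monocyte-like (0.873%), 4 in B cell-like (0.666%), 2 in macrophage-like (1.3%), 2 in T cell-like (0.475%) and 2 in plasma cell-like cells (0.61%), all upward. None was past it downward, where 1.53% of all genes were in monocyte-like, 3.1% in macrophage-like, 0.56% in dendritic cell-like, 8.67% in neutrophil-like, 1.34% in B cell-like, 0.63% in T cell-like and 0.357% in plasma cell-like cells. Gbp2 led in monocyte-like cells with 970.9 CPM (2.57), and Oasl1 had 435.5 CPM against 72.1 and 67.3 in SPF (2.56) and 130.4 in the DSS library. In dendritic cell-like cells Oasl1 (2.32) and Gbp2 (2.20) led as well, and in macrophage-like cells Ifitm3 (1.90) and Gbp2 (1.52). Ifi44 had 3.05 CPM in monocyte-like cells of this library and 69.9 in the DSS library, and Irf7 157.4 and 320.5. The median log2 ratio of the members was 0.12 in monocyte-like and 0.13 in macrophage-like cells, where those of all genes were −0.18 in both. Without SPF replicate 1 the upward counts were 21 in dendritic cell-like, 13 in neutrophil-like, 11 in monocyte-like, 9 in plasma cell-like and 8 in macrophage-like cells. Without SPF replicate 2 monocyte-like cells had 6 upward and 4 downward. With the stricter gate macrophage-like cells had 1 upward and 1 downward, and T cell-like cells 1 upward.

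**Figure D5:**
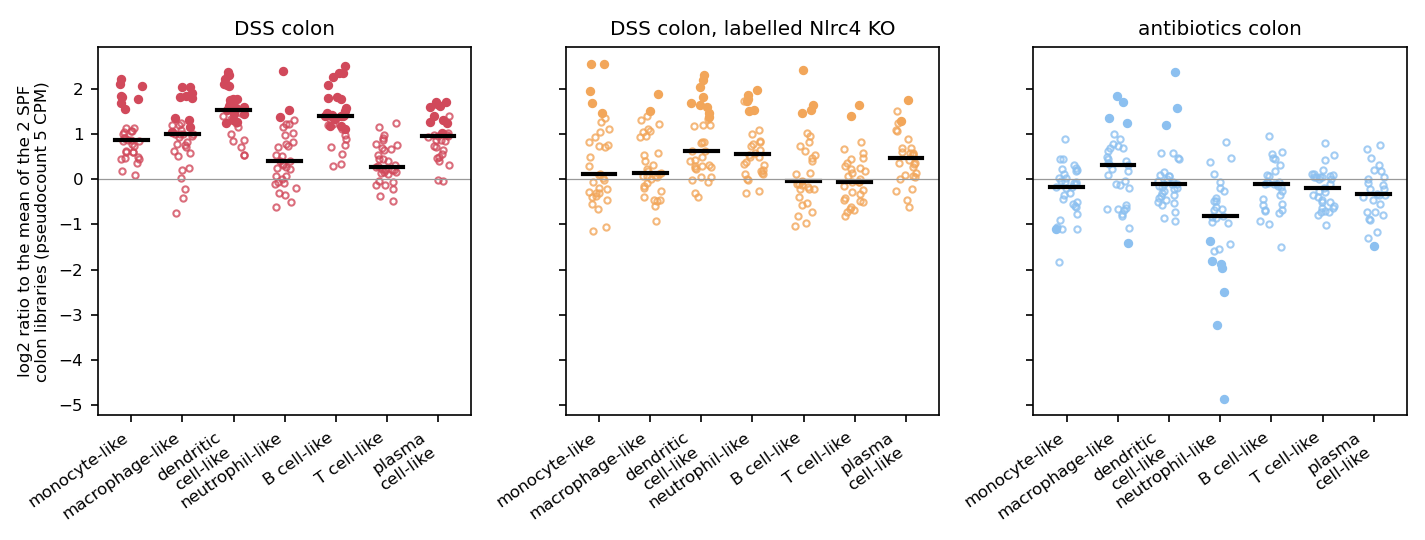
Log2 ratio of members with at least 10 UMIs to the mean of the 2 SPF colon libraries in each class, for the DSS library, the library labelled Nlrc4 deficient and the antibiotics library. Filled points are past 2-fold against each SPF library and black lines are medians. The DSS points lie above 0 in most classes, with 22 filled in dendritic cell-like cells, and the antibiotics points centre near 0 except in neutrophil-like cells (median −0.82).

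The antibiotics library was set beside SPF colon as a second way of lowering the microbial load. Irf7 was past the limit downward in 3 classes. It had 93.2 CPM in monocyte-like cells against 213.5 and 196.8 (log2 ratio −1.10, 1 of 33 down, background 0.574%), and 41.1 in macrophage-like cells against 144.0 and 91.0 (−1.41, 1 of 33 down, 1.36%). In neutrophil-like cells 7 of 28 members were past the limit downward (3.8%) and 0 upward (1.81%), with Ifit1 at 0 UMIs against 105.1 and 176.7 CPM and Ifit2 at 0 against 65.1 and 19.1. These zeros come from 193326 UMIs in 86 cells. Ifit1, Rsad2, Cmpk2 and Ifit3 were past the limit upward in macrophage-like cells (4 of 33, background 0.948%), by 1.85, 1.73, 1.37 and 1.26, and Ifit1, Rsad2 and Oasl1 in dendritic cell-like cells (3 of 33, 0.245%), by 2.38, 1.59 and 1.2. Ifit1 in dendritic cell-like cells had 68.4 CPM against 9.60 and 8.66 in SPF, and 17.1 and 94.3 in GF. With the stricter gate Ifit1 alone was past the limit upward in macrophage-like cells, Irf7 stayed past it downward there, and B cell-like cells had 2 downward. Without SPF replicate 2, macrophage-like cells had 7 upward and 6 downward, neutrophil-like cells 1 and 15, and monocyte-like cells 0 and 8. Without SPF replicate 1 they had 7 and 1, 3 and 6, and 5 and 1. No member passed in B cell-like (0.0709% up, 0.111% down) or T cell-like cells (0.227% and 0.475%). Gbp7 alone was past it, downward, in plasma cell-like cells (−1.49, background 1.72%), and upward none was in monocyte-like (0.277%) or plasma cell-like cells (0.839%).

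The spread over single cells was described at equal depth. Cells were thinned to 1000 UMIs each, leaving out shallower cells. Over all libraries these were 198 macrophage-like, 138 neutrophil-like, 55 B cell-like, 23 plasma cell-like, 18 monocyte-like, 7 T cell-like and 0 NK or innate lymphoid-like cells. In SPF replicate 2, 19 of 95 macrophage-like cells were left out. The share with at least 3 of the 9 Ifit, Isg15 and synthetase members was counted with its exact (Clopper-Pearson) 95% interval, which covers counting error only. In monocyte-like cells the share was 3.86% (1.94 to 6.80) and 2.04% (0.559 to 5.14) in SPF, 9.05% (6.89 to 11.6) with DSS and 6.02% (4.92 to 7.27) in the library labelled Nlrc4 deficient. Before thinning these shares were 32.8%, 33.2%, 51.5% and 62.1%. Neutrophil-like cells had 10.7% (4.72 to 19.9) and 12.8% (6.32 to 22.3) in SPF, and 3.45% (0.0873 to 17.8) and 0.541% (0.0137 to 2.97) in GF, the interval of GF replicate 1 reaching over both SPF shares. Macrophage-like cells had 2.52% (1.09 to 4.90) and 5.26% (1.45 to 12.9) in SPF and 3.09% (1.14 to 6.61) and 7.27% (3.19 to 13.8) in GF, with overlapping intervals. In B cell-like cells the share was 0% to 0.518% over the libraries. It was 0% in each library of plasma cell-like and of NK or innate lymphoid-like cells. The mean number of members detected per thinned monocyte-like cell was 3.24 and 2.61 in SPF, 1.24 and 2.00 in GF, and 5.05 with DSS. In T cell-like cells it was 0.873 and 0.976 in SPF, 0.331 and 0.545 in GF, and 1.52 with DSS. The GF libraries lay below both SPF libraries in both classes, and DSS above.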

How the data were processed

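The authors deposited, for each of 9 libraries, a matrix of UMI counts per gene and cell barcode. Per the labels they used Cell Ranger with STAR 2.5.1b on mm10, and the matrix header gives software version 3.0.2. The sources used here do not give the annotation version or say how reads of near-identical genes were split. No per-sample column was left unused (0 of them).

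Cells with at most 15% mitochondrial UMIs and at least 200 genes were kept. Each was placed in a class when at least 3 of a class's markers were detected and its mean of the 4 highest scaled markers led the next class by at least 0.15. Counts were summed per library and class with at least 20 cells. Sums were tested with edgeR 4.0.16 (quasi-likelihood, R 4.3.3), with adjusted p-values after Benjamini-Hochberg and a threshold of 0.05. SPF, GF and small intestine libraries (2 each) entered 1 fit per class, and classes were compared over 9 libraries with library as a block. DESeq2 1.42.0 was an alternative. Groups of 1 library were not tested and were described by log2 ratios with a pseudocount of 5 CPM. This was done for genes with at least 10 UMIs summed over the libraries compared, so a gene could pass through 1 library. Counts of libraries without overlap used the same minimum, so a gene could pass through 1 group. Levels are CPM with exact 95% Poisson intervals, and a count of 0 allows up to 3 counts. Intervals and floors cover counting error only. The fits were tested on simulated data. Python 3.11.15, pandas 2.3.3 and scipy 1.17.1 were used.

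Named members were the 10 with the largest change among those called in each tested comparison and class, the 5 with the largest ratio in each direction among those past 2-fold elsewhere, and the 5 with the highest mean in each class. The members, pathway lists and rules were chosen with earlier results of these data known. Values of 1 gene of the pathway lists are not reported here, though it is among the genes counted.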

Additional observations from a re-analysis of the deposited data

How the results depend on the processing

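Counts here are pairs of a member and a class. The 185 class calls became 125 on SPF colon alone, 162 without the library block, 175 in DESeq2 and 176 to 184 when single libraries were left out. Of the 70 named class values, 56 kept their call under every alternative run and 14 lost it under some, with none reversed. Germ-free calls went from 0 to 22 with no filter on low counts and 0 to 7 when single libraries were left out. Small intestine calls went from 0 to 5 in DESeq2, 20 with no filter and 1 to 6 with libraries left out. The interaction calls went from 0 to 1 (germ-free) and 2 (small intestine) with no filter, and to 0 to 1 and 0 to 2 with libraries left out. The cause was not tested.

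With the replicate number as a block there were 2 germ-free calls (Gbp2 in T cell-like and Slfn5 in neutrophil-like cells) and 4 in the small intestine. Deviations of same-numbered SPF and GF libraries correlated at 0.207 to 0.442 in 6 of 6 classes, and those with the small intestine at −0.089 to 0.380. The labels name no shared mouse, batch or day and each comparison has 2 numbers, too few to take them as pairs.

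Members past 2-fold with antibiotics numbered 17, and 31 at a pseudocount of 1 CPM, 7 at 20 CPM, and 32 to 55 with 1 SPF library left out. With DSS there were 74, 34 at a pseudocount of 20 CPM and 81 to 140 with 1 SPF library left out. In the library labelled Nlrc4 deficient there were 30, and 50 to 73. Few monocyte-like and neutrophil-like cells in GF and the small intestine limit the depth of those values.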

Other observations

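Classes outside the comparisons of the report held these values, which were looked at after the data were seen and were not tested. In epithelial-like cells the members summed to 2059 CPM in SPF replicate 1, 3058 with DSS, 249 and 199 in GF, 449 with antibiotics, and 442 and 280 in the small intestine. SPF replicate 2 had 18 such cells and was left out, so the SPF value has no replicate. Isg15 in them had 190.3 CPM in SPF replicate 1 and 10.1 and 1.47 in GF, and Irf7 150.5 against 17.0 and 12.2. Fibroblast-like cells held 3525 and 1921 CPM in SPF, 1524 and 1445 in GF, 2462 with antibiotics, 4116 with DSS and 5146 in the library labelled Nlrc4 deficient. The 23 plasmacytoid dendritic cell-like cells of small intestine replicate 1 held 3035 CPM, of which Bst2, a surface marker of these cells in the mouse, made up 2406 (95% interval 2183 to 2646), while Irf7 had 6 UMIs.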
